A study of Mus musculus with 7 samples.

Results

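A set of 10 genes that encode AP-1, BATF, BACH, MAF and IRF4 transcription factors was examined in chromatin accessibility data from CD4+ T cells of helminth-infected mice. The genes were Batf, Batf3, Irf4, Jun, Junb, Jund, Fos, Fosl2, Bach2 and Maf. Their regions were every region of the deposited table that overlapped a gene body, or 10 kb on either side of it, in the GENCODE annotation of GRCm38 (mm10). This gave 220 of the 113820 regions. Bach2, which is 347 kb long, held 117 of them and Jund, which is 1.67 kb long, held 6.

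The study followed CD4+ T cells that make IL-4 or IFNγ during infection with Nippostrongylus brasiliensis, a rodent hookworm-like nematode whose larvae pass through the lung. C57BL/6 mice were given 500 L3 larvae and sorted cells were taken on day 8. The LN IL-4+ group (n = 2) and the lung IL-4+ group (n = 3) were GFP+ CD4+ T cells of the mediastinal lymph node and the lung of IL-4 4get mice, in which GFP reports transcription of Il4. The lung IFNγ+ group (n = 2) was YFP+ CD4+ T cells of the lung of IFN-gamma Great mice, in which YFP reports Ifng. All 3 groups were infected, each library came from 50000 cells, and there was no uninfected group among them. Because the reporter lines differ, line and population cannot be told apart in any comparison with lung IFNγ+ cells, and tissue and the mixture of helper cell types within it cannot be told apart between the lymph node and the lung. The sort kept CD3ε+ CD4+ cells and removed cells with CD11b, CD11c, CD8, B220, NK1.1 or Ter119.

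AP-1 factors bind DNA as pairs of basic leucine zipper (bZIP) proteins, usually a JUN protein with a FOS or BATF partner, and most of their genes are induced within minutes to hours of T cell receptor signals. BATF with JUN proteins and IRF4 binds composite sites that open chromatin in activated T cells, BACH2 competes for related sites and restrains effector differentiation, and c-MAF, the product of Maf, drives Il4 and Il21 in helper T cells. ATAC-seq reads how often a transposase inserts into a stretch of chromatin, and so reads the openness of these genes and of their flanks, not their transcripts or proteins.

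Values are given on 2 scales. The density of a region is the deposited log2 of normalized insertions per kilobase. The locus sum is the number of normalized insertions over all regions of a gene, on a linear scale. A change in either can come from fewer cells with an open region or from fewer insertions per cell, and these cannot be told apart in sorted bulk cells. Differences were tested with limma over all 113820 regions, and a region was called where the Benjamini-Hochberg adjusted p was below 0.05 and the fold change at least 3. The comparisons share libraries: each group of 2 or 3 libraries enters 2 of them.

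The libraries held between 14005923 and 91681969 insertions as rebuilt from the table, and they also differed in spread. The distance between the upper and lower quartiles of these rebuilt insertion counts over all regions, on the log2 scale, was between 1.67 and 1.75 in lung IL-4+ replicates 2 and 3 and the LN IL-4+ library numbered 1, here named the narrow class, and between 2.91 and 3.09 in the other 4 libraries, the wide class. Both lung IFNγ+ libraries were in the wide class. All 5 T cell markers examined (Cd3e, Cd3g, Cd4, Cd5 and Lck) had a region at the 5′ end with a linear density between 8.23 and 27.9. Of 17 markers of other cell types, 13 had no region there, including Cd8a, Lyz2, Spi1 and Epcam. The other 4 did: Pecam1 at 13.7 to 24.7, Cdh1 at 15.2 and 17.2 in the lung IFNγ+ libraries and at 7.23 to 12.7 in the other 5, Cd8b1 at 2.95 to 7.31, and Itgam, which encodes the CD11b used to exclude cells, at 5.39 and 7.77 in the lung IFNγ+ libraries and at 0.898 to 2.89 in the other 5. The part of such cells in the results was not tested.

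Few regions of these genes passed the full criterion. Between lung IL-4+ and LN IL-4+ cells, 1 of 220 regions was called higher in the lung, against 1.05% of all regions, and 0 were called higher in the lymph node, against 0.695% (limma). In the comparison of lung IL-4+ with lung IFNγ+ cells, 0 were called in either direction, against 0.108% and 0.387% of all regions, while 22 of 220 (10.0%) had an unadjusted p below 0.05, against 14.8% of all regions. Between LN IL-4+ and lung IFNγ+ cells, 1 was called higher in the lung, against 2.17%, and 1 higher in the lymph node, against 0.862%. At an adjusted p below 0.05 with any fold change the counts were 6, 0 and 4, against 2.93%, 0.664% and 4.19% of all regions. These shares are near or below the background. The study counted a region as accessible at a mean of 5 normalized insertions per kb. Of the 220 regions, 92 (41.8%) reached this level in any group, against 55.4% of all regions. The median log2 fold change over the 220 regions was 0.14, 0.27 and -0.10 in the 3 comparisons, where the medians over all regions were -0.03, -0.01 and -0.03.

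Of the 7 regions that passed the adjusted p in any comparison, stretches of 6 follow, shown so that the sequence can be set beside the values, read from GRCm38 on the plus strand. Capitals mark AP-1 sites (TGACTCA on either strand) or a MAF core element (TGCTGAC on either strand). The Batf3 stretch is chr1:191102961-191103160 in an intron, and the Fosl2 stretches are chr5:32135844-32135870 at the 5′ end of the gene and chr5:32160549-32160748 in the downstream flank. The Bach2 stretches are intronic, at chr4:32251128-32251327, chr4:32343872-32344071 and chr4:32481448-32481647.
Batf3 intron: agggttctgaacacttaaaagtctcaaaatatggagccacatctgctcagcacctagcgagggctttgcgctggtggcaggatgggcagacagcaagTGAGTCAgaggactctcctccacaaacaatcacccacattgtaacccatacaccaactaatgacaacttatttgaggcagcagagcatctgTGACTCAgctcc
Fosl2 5′ end: gccattgtagTGACTCAtctcgggcag
Fosl2 downstream flank: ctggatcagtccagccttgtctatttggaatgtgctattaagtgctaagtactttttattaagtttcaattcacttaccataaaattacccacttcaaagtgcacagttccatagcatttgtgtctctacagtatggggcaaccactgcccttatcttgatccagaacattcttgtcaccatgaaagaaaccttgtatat
Bach2 intron, 5′ part: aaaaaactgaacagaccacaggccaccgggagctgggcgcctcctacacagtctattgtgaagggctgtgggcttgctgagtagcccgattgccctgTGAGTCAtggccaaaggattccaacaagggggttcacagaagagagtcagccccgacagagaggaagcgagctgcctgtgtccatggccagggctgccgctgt
Bach2 intron, higher in lung IFNγ+ cells: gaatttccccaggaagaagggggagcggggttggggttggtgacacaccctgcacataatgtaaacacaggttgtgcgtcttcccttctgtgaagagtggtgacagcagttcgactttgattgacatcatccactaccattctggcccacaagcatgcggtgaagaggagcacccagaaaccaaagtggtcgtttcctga
Bach2 intron, higher in LN IL-4+ cells: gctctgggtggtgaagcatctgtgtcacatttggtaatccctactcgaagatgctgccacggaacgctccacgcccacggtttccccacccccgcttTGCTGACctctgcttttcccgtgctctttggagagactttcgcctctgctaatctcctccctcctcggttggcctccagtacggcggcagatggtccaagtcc
The Batf3 stretch holds 2 AP-1 sites. The region around the 5′ Bach2 stretch holds 3 AP-1 sites and 3 MAF core elements in its 3272 bases, and the LN-high Bach2 region holds 1 MAF core element. The Fosl2 flank and the Bach2 region higher in lung IFNγ+ cells hold none of the motifs searched, which says only that these letters are not in those windows.

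The same motifs were counted over all regions of these genes, as a description with no test. Within the central 300 bases, 22 of 220 regions (10.0%) held the AP-1 site, against 9.49% of all regions cut in the same way. The MAF core element stood in 7.73% against 5.43%, and the interferon-stimulated element (GAAA, any 2 bases and GAAA again) in 3.64% against 4.72%. The BATF-IRF composite, GAAA directly before an AP-1 site or TTTC and any 4 bases before it, was in 0 of the 220 against 0.431%, and the cAMP response element TGACGTCA was in 0 against 0.637%. A composite site contains an AP-1 site, so those shares overlap. Whole regions differ in length, with a median of 636 bases at these genes and 486.5 over all regions. Over whole regions, the AP-1 site stood in 19.5% against 17.2%, the MAF core element in 19.1% against 11.5%, and the interferon-stimulated element in 14.1% against 10.5%. The last was thus below the other regions in the central window and above them over whole regions.

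**Figure D1:**
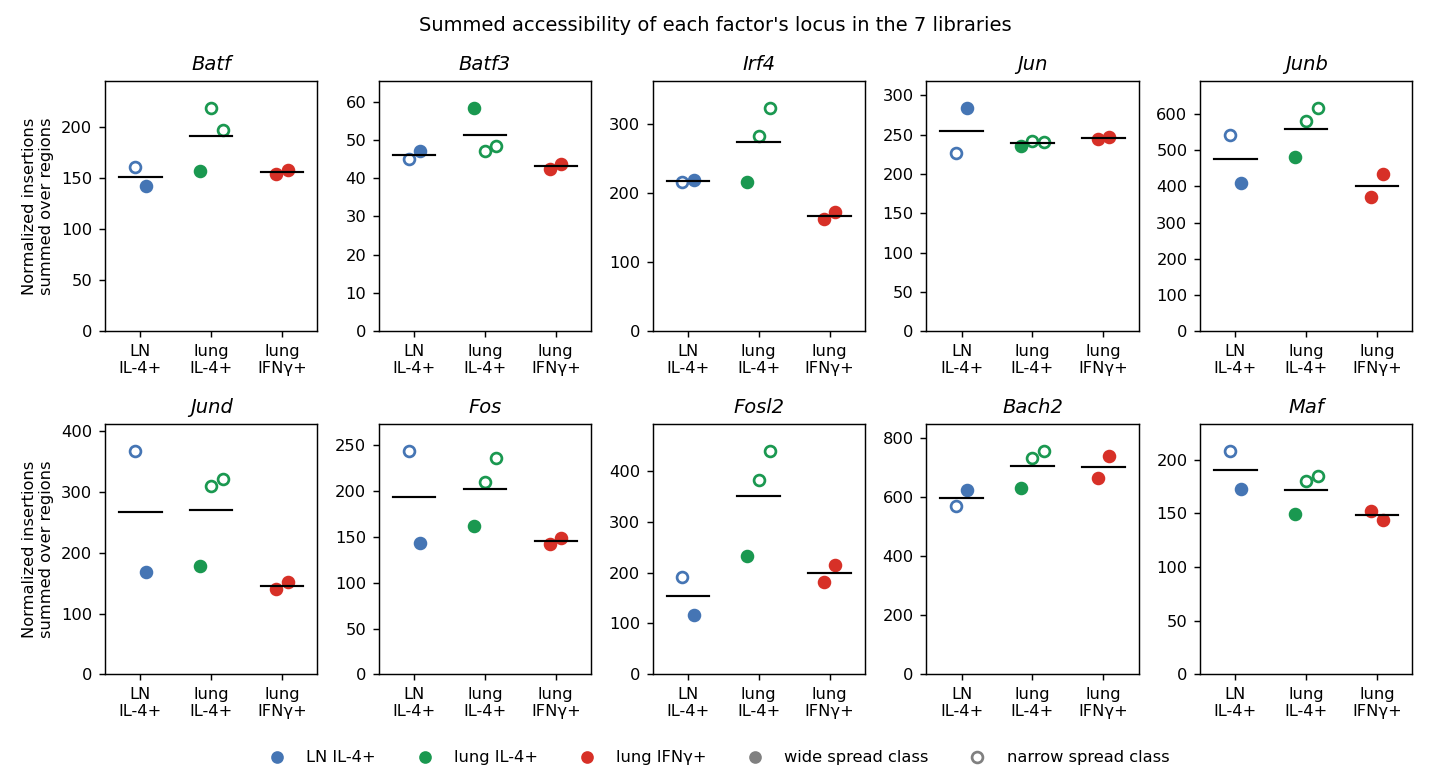
Locus sums of the 10 genes in the 7 libraries. The y axis of each panel is the number of normalized insertions summed over the gene's regions, from 0, each point is a library, the bar is the group mean, and open points are libraries of the narrow spread class. Fosl2 was higher in the 3 lung IL-4+ libraries than in any other library, Irf4 was lowest in the 2 lung IFNγ+ libraries, and Jund and Fos followed the spread class.

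Per kilobase of region, Jun and Junb were the most open of the 10 genes and Batf3 the least. The mean linear density over the 7 libraries was 32.2 normalized insertions per kb at Jun, 30.1 at Junb, 18.4 at Jund, 14.9 at Fos, 12.2 at Maf, 11.5 at Batf, 9.50 at Irf4, 8.77 at Fosl2, 7.66 at Bach2 and 6.43 at Batf3. The plot of locus sums shows each library. Where libraries of 2 groups did not overlap, the shares for all 13295 protein-coding gene loci with at least 3 regions give the background. Lung IL-4+ libraries were all above LN IL-4+ libraries at 3 of the 10 genes (Batf3, Fosl2 and Bach2; 8.4% of all loci), and the reverse held at 0 of 10 (17.0%). They were all above lung IFNγ+ libraries at 6 of 10 (Batf3, Irf4, Junb, Jund, Fos and Fosl2; 27.3%) and all below at Jun (29.5%). Lung IFNγ+ libraries were all above LN IL-4+ libraries at Bach2 (21.7%) and all below at 4 of 10 (Batf3, Irf4, Jund and Maf; 30.3%). The narrow class was wholly above the wide class at 5 of 10 (Batf, Junb, Jund, Fos and Maf), against 22.9% of all loci.

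Batf, whose product pairs with JUN proteins and is needed for Th2, Th17 and T follicular helper cells, had 14 regions and 0 of them passed the adjusted p in any comparison. Its locus sum was 161 and 142 in the LN IL-4+ libraries, 157, 219 and 197 in the lung IL-4+ libraries, and 154 and 158 in the lung IFNγ+ libraries. The 2 high values were lung IL-4+ libraries of the narrow class, and the third lung IL-4+ library lay among the other groups. The log2 difference between lung IL-4+ and LN IL-4+ cells was 0.33 (SE 0.17; exact permutation p = 0.3, smallest possible 0.1). The densest region was at the 5′ end, chr12:85686014-85686871, with a log2 density of 5.20 ± 0.21 in LN IL-4+ (SD, n = 2), 5.48 ± 0.10 in lung IL-4+ (SD, n = 3) and 5.43 ± 0.03 in lung IFNγ+ libraries (SD, n = 2). Its limma fold change between lung IL-4+ and LN IL-4+ cells was 0.27 on the log2 scale (SE 0.16, adjusted p = 0.464).

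Batf3, a related gene best known from dendritic cells and also induced in Th1 cells, had 1 intronic region that was more open in both lung populations than in the lymph node. The region, chr1:191102639-191103282, lies 5.11 kb from the start of the gene and holds the 2 AP-1 sites printed above. Its log2 density was 2.83 and 3.23 in LN IL-4+ cells, 4.63, 4.14 and 3.93 in lung IL-4+ cells, and 4.58 and 4.52 in lung IFNγ+ cells. All 5 lung libraries were above both lymph node libraries, on rebuilt counts of 135 to 1547. The log2 fold change over LN IL-4+ was 1.21 for lung IL-4+ (SE 0.25, adjusted p = 0.0317) and 1.52 for lung IFNγ+ cells (SE 0.27, adjusted p = 0.0142, limma), both under the 3-fold criterion. The first was past the adjusted p in 7 of 17 other settings and was lost without lung IL-4+ replicate 1 or 2, the LN IL-4+ library numbered 1 or either lung IFNγ+ library, with values up to 0.204. The second was past it in 13 of 17 and was lost without either lung IFNγ+ library, with values up to 0.189. The 5′ end of Batf3, chr1:191097102-191098956, had another order, with 3.08 ± 0.13 in LN IL-4+ (SD, n = 2), 3.06 ± 0.12 in lung IL-4+ (SD, n = 3) and 2.59 ± 0.07 in lung IFNγ+ libraries (SD, n = 2). There the adjusted p was 0.396 between the lung populations and 0.386 between LN IL-4+ and lung IFNγ+ cells. The locus sum was 45.1 and 47.1 in LN IL-4+, 58.4, 47.2 and 48.3 in lung IL-4+, and 42.5 and 43.8 in lung IFNγ+ libraries, with the 3 lung IL-4+ values above all the others by a small margin.

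Irf4, whose product is induced in proportion to T cell receptor signal and works with BATF, had a higher locus sum in every IL-4+ library than in either lung IFNγ+ library. The locus sum over its 15 regions was 216 and 218 in LN IL-4+ libraries, 216, 282 and 323 in lung IL-4+ libraries, and 162 and 173 in lung IFNγ+ libraries. No IL-4+ library reached down to the IFNγ+ range, although lung IL-4+ replicate 1 was level with the lymph node. The log2 difference of lung IL-4+ minus lung IFNγ+ cells was 0.69 (SE 0.18; exact permutation p = 0.2, where 3 against 2 libraries allow no p under 0.1) and had the same sign in 12 of 12 alternatives, between 0.37 and 0.85. That of lung IFNγ+ minus LN IL-4+ cells was -0.38 (SE 0.05; exact permutation p = 0.3333, the smallest that 2 against 2 allow), between -0.43 and -0.15 in 11 alternatives. Within the wide class, lung IL-4+ replicate 1 was above the lung IFNγ+ mean by 0.37 and level with LN IL-4+ replicate 2, with a difference of -0.01. Relative to all gene loci, the lung difference was at the 97.3rd percentile.

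None of the Irf4 regions passed the test alone. Of the 15, 13 had a higher mean in lung IL-4+ cells than in the lung IFNγ+ group, 2 had a lower one, 4 had an unadjusted p below 0.05 (against 14.8% of all regions) and the smallest adjusted p was 0.209 (limma). The 5′ end region, chr13:30746550-30749419, had a log2 density of 4.29 and 4.55 in LN IL-4+, 4.29, 4.57 and 4.79 in lung IL-4+, and 3.87 and 4.02 in lung IFNγ+ cells. The densest region, chr13:30760250-30761675, overlaps an exon 11.7 kb from the start, holds an AP-1 site and an interferon-stimulated element, and was 4.75 ± 0.33 (SD, n = 2), 4.59 ± 0.12 (SD, n = 3) and 4.27 ± 0.09 (SD, n = 2) in the same order of groups. In both regions each lung IFNγ+ library was below each IL-4+ library, and the fold changes did not pass (adjusted p between 0.241 and 0.47 against lung IL-4+ cells, and 0.282 and 0.309 against LN IL-4+ cells).

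Jun, the founding AP-1 gene, had a similar sum in all 3 groups. Its locus sum was 226 and 284 in LN IL-4+, 235, 242 and 240.4 in lung IL-4+, and 244 and 247 in lung IFNγ+ libraries. The 2 lymph node libraries spanned all the others. The 5′ end region, chr4:95052089-95053572, was the densest, with a log2 density of 6.83 ± 0.37 in LN IL-4+ (SD, n = 2), 6.65 ± 0.15 in lung IL-4+ (SD, n = 3) and 6.93 ± 0.02 in lung IFNγ+ libraries (SD, n = 2), and an adjusted p of 0.448 or above in each limma comparison. The antisense gene Junos starts beside Jun, so insertions at this end belong to both.

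Junb and Jund, the other JUN genes, had lower sums in lung IFNγ+ cells than in the lung IL-4+ libraries, and this moved with the spread class. The Junb sum, whose flanks also cover Rnaseh2a and Prdx2, was 542 and 409 in LN IL-4+, 480.5, 580.4 and 617 in lung IL-4+, and 371 and 433 in lung IFNγ+ libraries. The 3 narrow libraries held the 3 highest values. The Jund sum, with Iqcn in its downstream flank, was 367 and 168 in LN IL-4+, 179, 309 and 320.5 in lung IL-4+, and 140.2 and 151 in lung IFNγ+ libraries. Here the narrow class spanned 309 to 367 and the wide class 140.2 to 179, whatever the population. The mean log2 difference of narrow over wide was 1.06 at Jund, and only 0.79% of gene loci had one as large. Within the wide class the Jund difference between lung IL-4+ and lung IFNγ+ cells was 0.29 on the log2 scale, against 0.84 over all libraries, and within the narrow class lung IL-4+ minus LN IL-4+ was -0.22.

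At region level, 0 Jun-family regions passed the adjusted p. The Jund 5′ end region, chr8:70698288-70703701, covers the whole gene and was 5.65 and 4.66 in LN IL-4+, 4.73, 5.42 and 5.40 in lung IL-4+, and 4.34 and 4.43 in lung IFNγ+ cells (log2 density). The log2 fold change between the lung populations was 0.80 (SE 0.30, adjusted p = 0.268, limma). The Junb 5′ end region, chr8:84973731-84979533, was 5.36 ± 0.38 in LN IL-4+ (SD, n = 2), 5.54 ± 0.22 in lung IL-4+ (SD, n = 3) and 5.06 ± 0.18 in lung IFNγ+ libraries (SD, n = 2), with an adjusted p of 0.326 between the lung populations. The smallest adjusted p at Junb was 0.0574, for lung IFNγ+ minus LN IL-4+ cells in the downstream flank.

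Fos, an immediate early gene, followed the spread class in the same way as Jund. Its sum over 10 regions was 243 and 143 in LN IL-4+, 161, 209 and 236 in lung IL-4+, and 142 and 149 in lung IFNγ+ libraries. The narrow libraries were between 209 and 243 and the wide ones between 142 and 161, a mean log2 difference of 0.62. Within the wide class, lung IL-4+ minus lung IFNγ+ was 0.15, against 0.46 over all libraries. The region at the 5′ end, chr12:85472087-85474014, was 4.98 ± 0.35 in LN IL-4+ (SD, n = 2), 5.13 ± 0.23 in lung IL-4+ (SD, n = 3) and 4.78 ± 0.05 in lung IFNγ+ libraries (SD, n = 2). The densest region lay 11.9 kb downstream of the start, chr12:85485215-85486371, and was even, at 5.25 ± 0.48 (SD, n = 2), 5.16 ± 0.19 (SD, n = 3) and 5.17 ± 0.03 (SD, n = 2), with an adjusted p of 0.897 or above in each comparison. Across the 7 libraries the log2 sums of Jund and Fos had a Pearson r of 0.98, and those of Junb and Fos 0.92. These are descriptions over libraries that share depth and spread class.

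Fosl2, which encodes the FOS-related factor FRA-2, had the largest difference of the 10 locus sums between lung IL-4+ and LN IL-4+ cells. Its locus sum was 192 and 116 in LN IL-4+ libraries, 232, 382 and 439 in lung IL-4+ libraries, and 182 and 215 in lung IFNγ+ libraries. Every lung IL-4+ library was above every library of the other 2 groups. The log2 difference of lung IL-4+ minus LN IL-4+ cells was 1.18 (SE 0.46; exact permutation p = 0.2, smallest possible 0.1), which was at the 99.6th percentile of all gene loci. It was 1.09 within the narrow class (2 libraries against 1) and 1.00 within the wide class (1 against 1), and between 0.82 and 1.59 in 13 alternatives. The Fosl2 sum also differed by spread class: the mean log2 difference of narrow over wide was 0.82, and 2.76% of gene loci had one as large. Lung IL-4+ minus lung IFNγ+ cells gave 0.78 (SE 0.30; exact permutation p = 0.2) over all libraries and 0.23 within the wide class.

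The Fosl2 difference in means between the IL-4+ groups had the same sign along the whole locus, but their libraries overlapped at some regions. At chr5:32140985-32144830 the log2 density was 2.16 in LN IL-4+ replicate 1 and 1.05 in lung IL-4+ replicate 1. Neighbouring regions are read from the same libraries, so they are not independent of each other. All 19 regions had a higher mean in lung IL-4+ than in LN IL-4+ cells, with log2 fold changes between 0.12 and 2.59 and a median of 1.71, and 17 had an unadjusted p below 0.05, against 16.2% of all regions (limma). In lung IFNγ+ over LN IL-4+ cells, 18 of 19 were positive with a median of 0.51, but 2 had an unadjusted p below 0.05, against 18.5% of all regions, and 0 passed the adjusted p. Both comparisons use the same lymph node libraries. The 5′ end region, chr5:32134965-32136748, was the densest, at 5.28 and 5.18 in LN IL-4+, 5.89, 5.96 and 6.11 in lung IL-4+, and 5.57 and 5.76 in lung IFNγ+ cells, so that the 3 groups did not overlap, with LN IL-4+ lowest, lung IFNγ+ between and lung IL-4+ highest. Its fold change for lung IL-4+ over LN IL-4+ cells was 0.76 on the log2 scale (SE 0.15, adjusted p = 0.0283, limma), and it holds the printed AP-1 site 53 bases after the annotated start. This was past the adjusted p in 9 of 17 other settings and was lost without lung IL-4+ replicate 2 or 3 or either lung IFNγ+ library, with values up to 0.241. Past 5 kb from the start the spread between libraries was wider. The region that was called, chr5:32160314-32160984, lies 24.8 kb from the start in the downstream flank. Its mean was below the accessible level of 5 normalized insertions per kb in every group, and a filter at that level left it out. Its log2 density was 0.63 and -0.52 in LN IL-4+, 1.88, 2.72 and 2.16 in lung IL-4+, and 2.01 and 1.61 in lung IFNγ+ cells. The log2 fold change was 2.19 (SE 0.50, adjusted p = 0.0472, limma), on rebuilt counts of 15 to 139. It was called in 3 of 16 other settings and lost without any library other than LN IL-4+ replicate 1, with adjusted p-values up to 0.235.

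**Figure D2:**
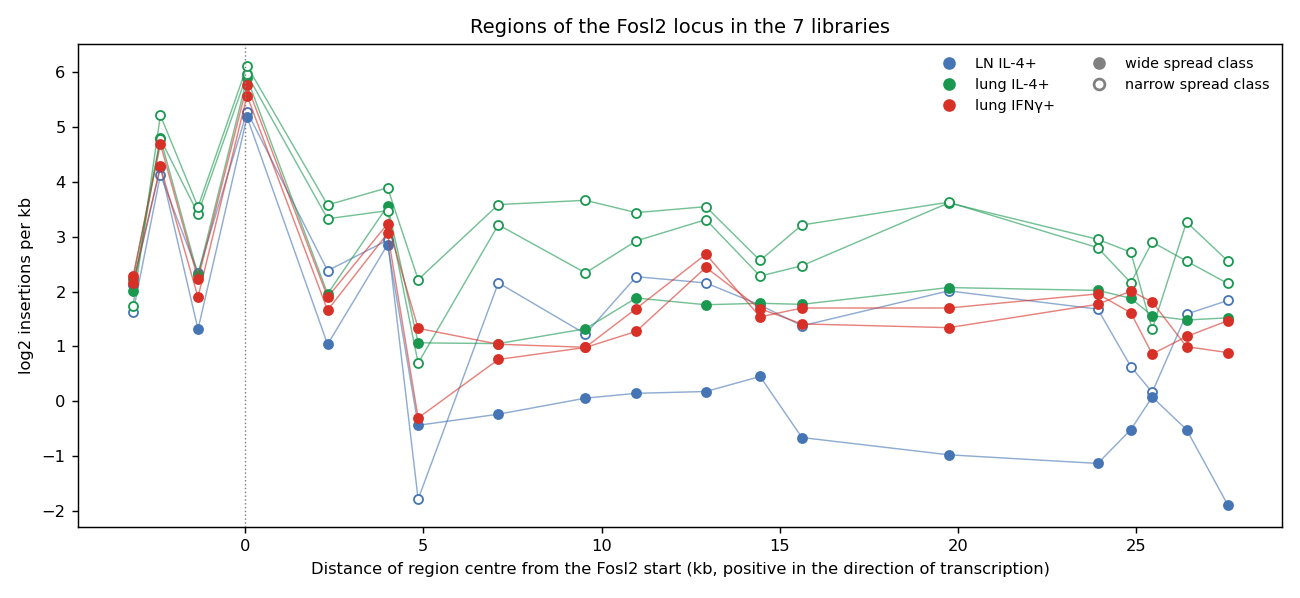
Log2 insertions per kb of the 19 Fosl2 regions in the 7 libraries (y axis) against the distance of the region's centre from the start of the gene in kb (x axis). Lines join the regions of a library, and open points are libraries of the narrow spread class. The 5′ end separates the 3 groups, and from 5 kb onward LN IL-4+ replicate 2 is the lowest library at most regions and lung IL-4+ replicates 2 and 3 the highest.

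Bach2, whose product restrains effector and memory differentiation and is high in naive cells, was not uniformly higher or lower. Its locus sum was 571 and 624 in LN IL-4+, 633, 734 and 757 in lung IL-4+, and 666 and 741 in lung IFNγ+ libraries. The lung libraries were all above the lymph node, but by a log2 difference of only 0.24 for each lung population (SE 0.10 for both). Of its 117 regions, 59 had a positive fold change for lung IL-4+ over LN IL-4+ cells and 50 for lung IFNγ+ over LN IL-4+ cells, and these regions differed by position. The 5′ part of the gene, up to its midpoint at 174 kb, held 82 regions with a sum of 430.0 and 466 in LN IL-4+, 509, 574 and 627 in lung IL-4+, and 544 and 618 in lung IFNγ+ libraries. The 3′ part held 31 regions with 98.2 and 108 in LN IL-4+, 60.2, 82.6 and 71.7 in lung IL-4+, and 57.4 and 59.7 in lung IFNγ+ libraries. So every lung library was above every lymph node library in the 5′ part and below every one in the 3′ part, in both spread classes.

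The log2 difference in the 5′ part was 0.34 for lung IL-4+ and 0.37 for lung IFNγ+ over LN IL-4+ cells, and in the 3′ part it was -0.54 and -0.81. With 1 library left out at a time, the 3′ differences stayed between -0.65 and -0.42 and between -0.88 and -0.75. In the 3′ part, 6 and 4 of the 31 regions had a positive log2 fold change, against 52 and 44 of the 82 in the 5′ part. Most of these regions were weak: 5 of the 31 and 23 of the 82 reached the accessible level of 5 normalized insertions per kb in any group. The division was chosen after the values were seen, so it is given without a test. With the division at 200 kb the 3′ differences were -0.58 and -0.94. With it at 100 kb, so that the regions between 100 and 174 kb were added to the 3′ part, they were -0.16 and -0.18, and lung IL-4+ and LN IL-4+ libraries overlapped.

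**Figure D3:**
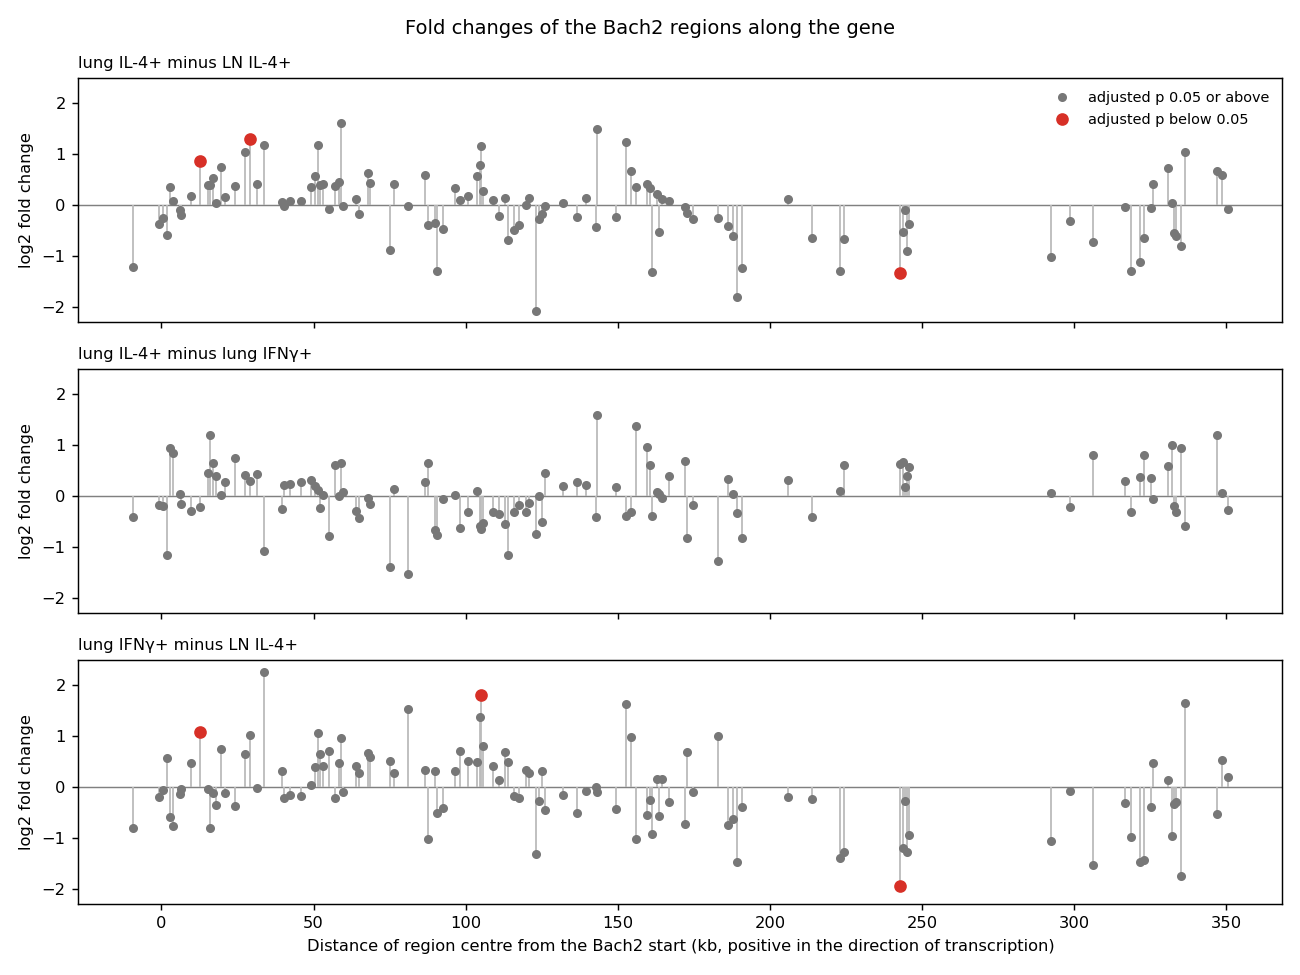
Log2 fold changes of the 117 Bach2 regions (y axis) against the distance of their centres from the start of the gene in kb (x axis), 1 panel per comparison. Red points passed an adjusted p below 0.05. In the 2 comparisons with LN IL-4+ cells, which share the lymph node libraries, the red points at 105 kb or less from the start are above 0 and the red point at 243 kb is below 0, and the comparison of the lung populations has none.

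Single Bach2 regions passed the test on both sides. The strongest, chr4:32481339-32482041, is an intronic region 243 kb from the start with the printed MAF core element. Its log2 density was 3.52 and 3.84 in LN IL-4+, 2.19, 2.39 and 2.45 in lung IL-4+, and 1.69 and 1.76 in lung IFNγ+ cells. The 3 groups did not overlap. The log2 fold change was -1.95 for lung IFNγ+ minus LN IL-4+ cells (SE 0.32, adjusted p = 0.00947), which was called, and -1.34 for lung IL-4+ minus LN IL-4+ cells (SE 0.29, adjusted p = 0.0387, limma). The call held in 13 of 17 other settings and was lost without either lung IFNγ+ library and with a replicate block, with adjusted p-values up to 0.15. The smaller difference was past the adjusted p in 5 of 17 other settings and was lost without any 1 of the 7 libraries, with values up to 0.208. The second, chr4:32343736-32344208, lies 105 kb from the start and was 3.03 and 4.44 in LN IL-4+, 4.63, 4.61 and 5.38 in lung IL-4+, and 5.37 and 5.67 in lung IFNγ+ cells. It was called for lung IFNγ+ over LN IL-4+ cells (log2 1.79, SE 0.41, adjusted p = 0.0384, limma). That call held in 9 of 17 other settings. It was lost without LN IL-4+ library 1, without the lung IL-4+ library numbered 2 or without either lung IFNγ+ library, with adjusted p-values up to 0.268.

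Nearer the start, 2 regions were more open in the lung with less than a 3-fold change. The first, chr4:32249731-32253002, lies 12.6 kb from the start and holds the AP-1 site printed above. It was 4.11 and 4.47 in LN IL-4+, 5.21, 5.06 and 5.16 in lung IL-4+, and 5.33 and 5.40 in lung IFNγ+ cells, so the lymph node lay apart. The log2 fold change was 0.85 for lung IL-4+ (SE 0.18, adjusted p = 0.0306) and 1.07 for lung IFNγ+ over LN IL-4+ cells (SE 0.19, adjusted p = 0.0136, limma). These were past the adjusted p in 6 and 12 of 17 other settings, with values up to 0.331. The first was lost without any 1 of 6 libraries, all but LN IL-4+ replicate 2, and the second without either lung IFNγ+ library. The region chr4:32267419-32268451, 29.1 kb from the start, was 1.65 ± 0.11 in LN IL-4+ (SD, n = 2), 2.94 ± 0.08 in lung IL-4+ (SD, n = 3) and 2.65 ± 0.22 in lung IFNγ+ libraries (SD, n = 2), a log2 fold change of 1.29 between the IL-4+ groups (SE 0.29, adjusted p = 0.0469, limma), which was lost without any 1 of the 7 libraries, with adjusted p-values up to 0.253. The 5′ end of Bach2, chr4:32238330-32240373, did not share this order, at 4.81 ± 0.03 (SD, n = 2), 4.55 ± 0.05 (SD, n = 3) and 4.74 ± 0.17 (SD, n = 2), with an adjusted p of 0.525 or above. The densest region, chr4:32257598-32259139, was 4.65 ± 0.40, 5.39 ± 0.16 and 5.38 ± 0.08 (SD, same numbers of libraries), with an adjusted p of 0.0835 and 0.0968 for the lung populations over LN IL-4+ cells.

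**Figure D4:**
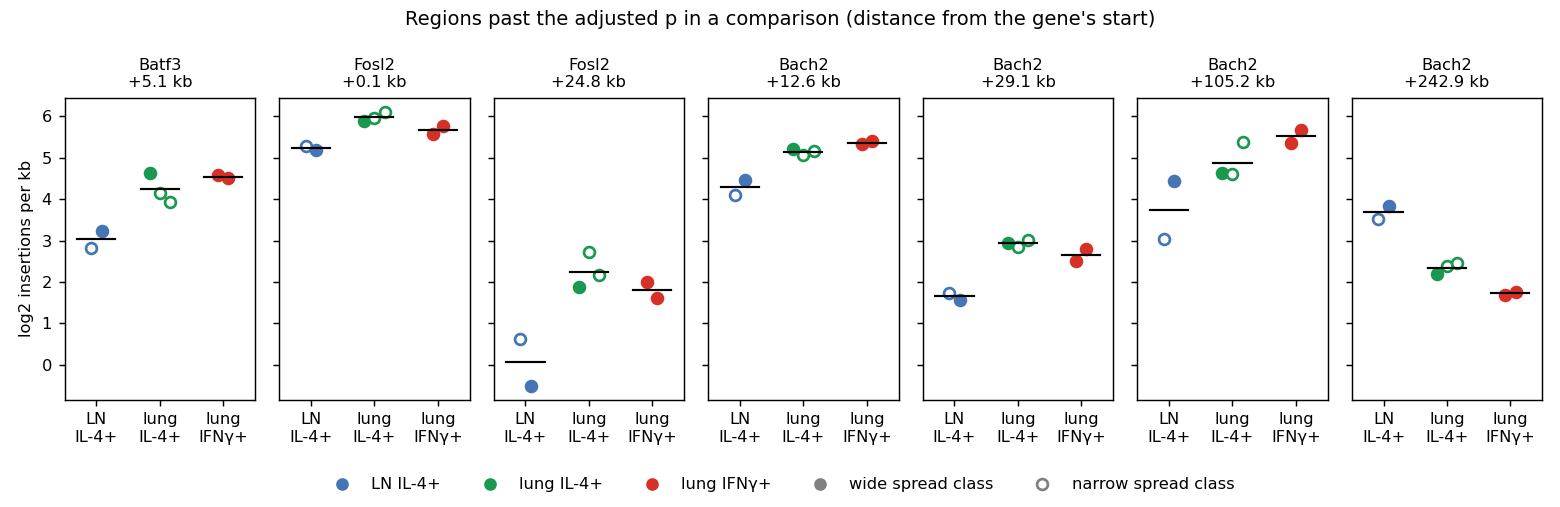
Log2 insertions per kb (y axis) of the 7 regions with an adjusted p below 0.05 in any comparison, by group, 1 panel per region with its distance from the gene's start above it. Points are libraries, bars are group means, and open points are libraries of the narrow class. In 6 panels the LN IL-4+ mean is the lowest, and the Bach2 region at +242.9 kb has it highest.

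Maf, whose product c-MAF was first tied to Il4 in Th2 cells and is high in T follicular helper cells, had its lowest mean in lung IFNγ+ cells. Its sum was 208 and 173 in LN IL-4+, 149, 180.2 and 184 in lung IL-4+, and 152 and 143 in lung IFNγ+ libraries. Both lymph node libraries were above both lung IFNγ+ libraries, a log2 difference of -0.36 for lung IFNγ+ minus LN IL-4+ cells (SE 0.14; exact permutation p = 0.3333, the smallest possible), with the same sign in 11 of 11 alternatives and -0.22 within the wide class. The 5′ end region, chr8:115704315-115708846, was 5.11 and 4.96 in LN IL-4+, 4.72, 4.87 and 4.79 in lung IL-4+, and 4.65 and 4.57 in lung IFNγ+ cells. The groups stood in that order without overlap, and the smallest of the 3 adjusted p-values was 0.246 (limma). None of the 11 Maf regions held an AP-1 site.

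The genes whose locus sums varied most like these ones were named from the 13295 loci by Pearson r over the 7 libraries. For Fosl2 they were Ramp3 (0.988) and Tctex1d4 (0.987), for Irf4 Nfkbiz (0.989) and Cdk17 (0.983), and for Bach2 Col11a1 (0.989) and Tut4 (0.987). Batf was most like Arl4c (0.978) and Lrrfip1 (0.976), Junb like Stat6 (0.991) and Zbtb25 (0.990), and Maf like Orm2 (0.999) and Orm3 (0.997). For Jund they were Slc26a10 and B4galnt1 (0.999 each), for Fos Pias4 (0.997) and Stum (0.997), for Jun Zfp53 (0.968) and Mars2 (0.952), and for Batf3 Pdgfrb (0.978) and Gpr108 (0.969). These values rest on 7 libraries with a shared spread class, and how common they are differed by gene. An r above 0.9 was reached by 13.4% of all loci with Fos, 13.0% with Jund, 6.51% with Maf and 3.73% with Junb. It was reached by 1.44% with Fosl2, 0.92% each with Irf4 and Batf, 0.26% with Bach2, 0.18% with Batf3 and 0.17% with Jun.

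Other bZIP and IRF genes, 20 in all with 208 regions, were counted in the same way. For lung IL-4+ over LN IL-4+ cells 3 regions were called, 2 at Jdp2 and 1 at Atf3, against 1.05% of all regions, and 0 in the other direction, against 0.695%. Between the lung populations 0 were called, with a smallest adjusted p of 0.058 at Irf2. For lung IFNγ+ over LN IL-4+ cells 3 regions at Jdp2 and 1 at Irf2 were called, against 2.17%, and 1 at Bach1 was called higher in the lymph node, against 0.862%. The leading region, chr12:85632312-85632761 at Jdp2, which encodes a JUN-dimerizing repressor and lies between Fos and Batf, is 54.1 kb upstream of the start of Batf. It was 2.28 and 3.11 in LN IL-4+, 5.86, 5.78 and 5.54 in lung IL-4+, and 5.47 and 5.53 in lung IFNγ+ cells (log2 density). Both lung populations were far above the lymph node, with log2 fold changes of 3.04 (SE 0.24, adjusted p = 0.00218) and 2.81 (SE 0.26, adjusted p = 0.00121, limma).

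The 8 genes listed as known targets of these factors in CD4+ T cells had 134 regions. In lung IL-4+ minus LN IL-4+ cells 1 region at Il10 was called higher, against 1.05% of all regions, and 1 at Ctla4 lower, against 0.695%. In the comparison of the lung populations 3 regions were called, against 0.108% of all regions, all higher in lung IL-4+ cells and all at Il4, the gene whose reporter was used to sort them. In lung IFNγ+ minus LN IL-4+ cells 5 were called higher (2 at Il10 and 1 each at Prdm1, Ctla4 and Gata3; 2.17% of all regions) and 4 lower (3 at Il4 and 1 at Bcl6; 0.862%). The leading Il10 region, chr1:131025655-131027024, was 2.53 and 2.96 in LN IL-4+, 4.38, 4.45 and 4.34 in lung IL-4+, and 4.48 and 4.45 in lung IFNγ+ cells, with log2 fold changes of 1.65 (SE 0.21, adjusted p = 0.00502) and 1.72 (SE 0.23, adjusted p = 0.00419, limma) over the lymph node. The leading Il4 region, chr11:53626465-53628259, was 3.91 ± 0.24 in LN IL-4+ (SD, n = 2), 4.75 ± 0.14 in lung IL-4+ (SD, n = 3) and 3.01 ± 0.28 in lung IFNγ+ libraries (SD, n = 2), a log2 fold change of 1.75 between the lung populations (SE 0.22, adjusted p = 0.0158, limma).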

How the data were processed

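ATAC-seq libraries of sorted CD4+ T cells were analysed from the table that the authors deposited, whose values are log2 normalized transposase insertions per kilobase. The authors mapped reads to GRCm38/mm10 with Bowtie2 (2.3.2), called summits per replicate with MACS2 (2.1.1), merged them into regions, counted insertions and normalized them with voom in limma (3.38.3). With region length removed, the sorted values nearly coincide between libraries, as quantile normalization leaves them, so library-wide differences are not readable from the values. Insertion counts were rebuilt from tied values as lower bounds.

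The 220 regions were found with GENCODE M21 gene bodies and 10 kb flanks. All regions were fitted with limma (3.58.1, R 4.3.3), 1 mean per group, eBayes with a variance trend and no filter. On simulated data at the spread of these libraries, 22%, 13% and 9% of changes of 2 on the log2 scale were recovered over 113820 regions in lung IL-4+ against LN IL-4+, lung IL-4+ against lung IFNγ+ and lung IFNγ+ against LN IL-4+ cells, and 40%, 40% and 26% of changes of 3, with at most 2 false calls. The simulated noise was independent between regions and had no spread classes, so the false calls do not cover that feature of the data. Named regions were those past the criterion, the densest and the 5′ end region of each gene, and those past the adjusted p alone. The genes and lists were chosen with earlier results of these data known. The labels number replicates but name no shared mouse, so p-values measure the spread between libraries. Sequences were read from GRCm38.p6.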

Additional observations from a re-analysis of the deposited data

How the results depend on the processing

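The counts of called regions at the 10 genes are given for the settings that changed them by more than 1.5 times (limma unless named). Between lung IL-4+ and LN IL-4+ cells, where 1 was called, 0 were called with a filter on low regions, log2(density + 1), median centring, a fit of 2 groups at a time, a GC correction, array weights or the gene body alone. There were 7 with the spread class as a covariate (listed with earlier results of these data known), 3 with voom on the rebuilt counts, 6 with the adjusted p alone, 4 with a 2-fold threshold and 2 with 25 kb flanks, and between 0 and 5 with 1 library left out. Between the lung populations, where 0 were called, there were 8 with array weights and 0 in every other setting tried. Between LN IL-4+ and lung IFNγ+ cells, where 2 were called, there were 1 with a fit of 2 groups at a time, 7 with the spread class as a covariate, 4 with the adjusted p alone and 4 with a 2-fold threshold, and between 0 and 7 with 1 library left out. Over all 113820 regions, the spread class covariate called 2436 higher and 1580 lower in lung IL-4+ than LN IL-4+ cells, and voom 979 and 876. The covariate called 3241 higher and 2017 lower in lung IFNγ+ than LN IL-4+ cells. Array weights called 3121 higher and 3440 lower in lung IL-4+ than lung IFNγ+ cells. With both directions counted together, the share called at the 10 genes was not above the share of all regions in any of these fits. For regions called higher in lung IL-4+ cells alone, the share at the 10 genes was above that of all regions. This held against LN IL-4+ cells with the covariate (6 regions) and voom (2 regions), and against lung IFNγ+ cells with array weights (7 regions). Fits with 1 library left out are not part of this comparison. A replicate block gave 0 at the 10 genes in all 3 comparisons, alone and with the GC correction. Over all 113820 regions it also called 0 in both comparisons with lung IL-4+ cells, alone and with that correction. In lung IFNγ+ minus LN IL-4+ cells it called 468 regions higher and 88 lower, and 106 and 10 with the GC correction. Deviations of same-numbered libraries from their group means had correlations between -0.54 and 0.057. These cannot show whether the numbers pair libraries of 1 mouse, because deviations in a group of 2 libraries mirror each other. The cause of these changes was not tested. The regions that came in with the spread class as a covariate were mostly at Fosl2. Of the locus differences, those of Fosl2 and Junb in all 3 comparisons kept their sign in every alternative tried. So did those of Irf4, Jund and Maf in both comparisons with lung IFNγ+ cells. The same held for Batf and Batf3 in both comparisons with lung IL-4+ cells, and for Fos between the lung populations. The difference of Jund between lung IL-4+ and LN IL-4+ cells ranged from -0.49 to 0.64. The motif shares at the 10 genes were read from windows of 200 and 300 bases and whole regions. Counts were low at the called Fosl2 flank region, where LN IL-4+ replicate 2 had 15 rebuilt insertions. That library held 63937033 rebuilt insertions over all regions. Lung IL-4+ replicate 3 held 14005923 and had 61 at this region. The part of depth in the low count was not tested.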
